A study of Mus musculus with 15 samples.

Results

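The comparison described here sets a mouse mammary carcinoma line that carried Twist1 with the S42D substitution against one that carried wild-type Twist1. Members were the samples whose titles named S42D (3 arrays) and those whose titles named Twist1 with no substitution (3 arrays), 6 of the 15 samples in the series. RNA was read on microarrays, and every level below is a log2 intensity as deposited. Both were derivatives of 4T1, a metastatic breast cancer cell line of the mouse, in which endogenous Twist1 had been depleted (4T1_Tw1KD) before Twist1 was put back. The other samples were parental 4T1 cells, Tw1KD cells without added Twist1 and Tw1KD cells with Twist1 S42A, each on 3 arrays, and they are used here for reference levels. The genotype label of the S42D samples reads S42A\D, so their identity rests on the title. Cultures in DMEM received puromycin at 4 µg/ml together with G418 at 800 µg/ml and were harvested at 70% confluency, and 100 ng of RNA was labelled for each array. Whether the parental cells, which carry no construct, also received the drugs is not stated. How Twist1 was depleted, the promoter of the constructs and whether a line is 1 clone are not given in the sources used here. With 1 line per construct, an effect of the substitution and any other difference between the lines cannot be told apart. The labels do not say that the 3 arrays of a line came from separate cultures, so p-values measure the spread between these arrays, which may be technical.

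Twist1 is a basic helix-loop-helix transcription factor that binds E-box sequences together with E proteins and is known for driving epithelial-mesenchymal transition, in which carcinoma cells lose epithelial junctions and gain motility. Serine 42 is a known target of the kinase Akt (protein kinase B). Aspartate at that position carries a negative charge and serves as a mimic of the phosphorylated residue, and alanine cannot be phosphorylated. The study addressed how the state of this site alters the genes that respond to Twist1, with cross-talk between PI3K-Akt and TGF-beta signalling as background.

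Twist1 itself (probe set 10395320) was read at log2 levels of 8.35, 8.49 and 8.16 on the 3 wild-type arrays and 9.07, 8.96 and 8.97 on the 3 S42D arrays. The lines did not overlap, and S42D was higher by 0.67 ± 0.080 log2 (difference ± SE), a 1.59-fold difference (limma adjusted p = 6.2e-06, n = 3 arrays per line). For reference, Tw1KD cells had 7.35 ± 0.12 (mean ± SD), S42A 8.70 ± 0.099 and parental cells 9.03 ± 0.030. The S42D line therefore differed from the wild-type line in the Twist1 level read at this probe set as well as in the substitution. The part of either in the differences below was not tested. It is not known if this probe set also detects transcripts from the constructs.

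Of 19937 genes tested, 8630 (43.3%) were called between the lines at an adjusted p under 0.05, 4133 higher (20.7%) and 4497 lower (22.6%) in S42D. Most were small: 2666 (13.4%) were called with at least a 1.5-fold difference and 961 (4.82%) with at least a 2-fold difference. Of these last, 639 (3.21%) were higher and 322 (1.62%) lower in S42D. The 3 arrays of the lines did not overlap for 53.4% of genes, and 42.9% were both called and without overlap. The median difference over all genes was 0.010 log2. Correlations across genes between arrays were 0.998 to 0.999 within the 2 lines and 0.980 to 0.981 between them. Since calls were this frequent, a gene list is read against 20.7% higher and 22.6% lower. These shares include dim genes. With the dimmest 25% of genes left out, 4064 genes were called higher and 4486 lower, nearly as many among fewer genes. The shares among brighter genes are therefore larger than those of all genes. An excess over all genes is smaller when a list of mostly brighter genes is read against them.

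**Figure D1:**
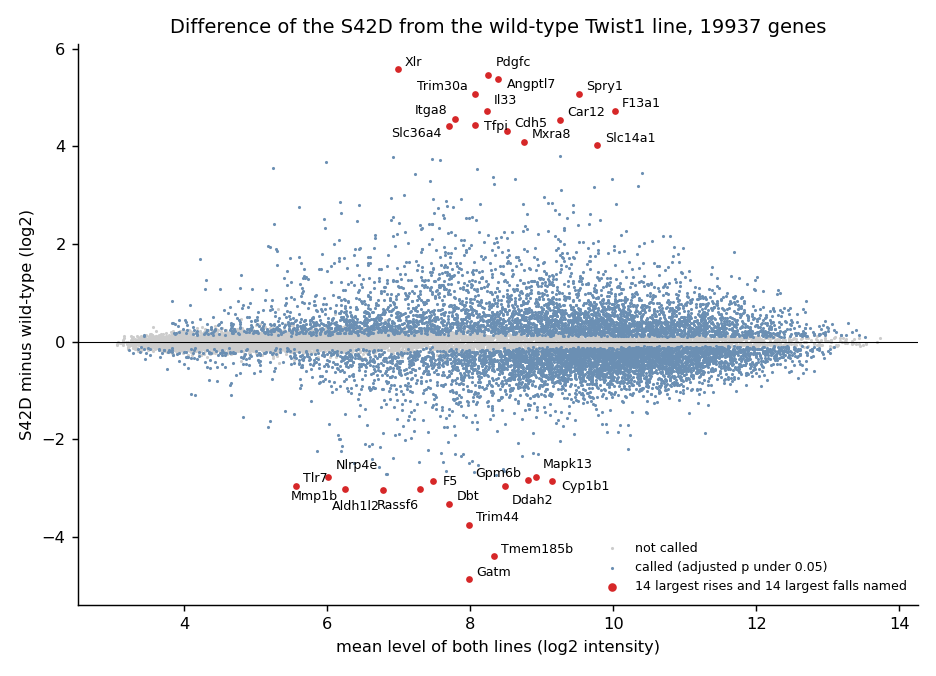
Each point is a gene; the horizontal axis is the mean log2 intensity of the wild-type and S42D lines and the vertical axis is S42D minus wild-type (log2), with called genes in blue. The 14 largest rises, from Slc14a1 (4.02) to Xlr (5.57), and the 14 largest falls, from Nlrp4e (-2.76) to Gatm (-4.86), are red.

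The largest difference of a growth factor gene was that of Pdgfc, which encodes a ligand of the PDGF receptors. It lay at 5.55, 5.35 and 5.67 on the wild-type arrays and 11.04, 10.94 and 10.95 on the S42D arrays. The groups were far apart, with S42D higher by 5.46 ± 0.073 log2, 44.0-fold (adjusted p = 2.5e-15). Its wild-type level lay at the border of the dimmest 25% of genes (5.51), so this fold may be understated. Spry1, which encodes a feedback inhibitor of receptor tyrosine kinase signalling to ERK, had 6.94, 6.85 and 7.14 in the wild-type line and 12.05, 12.05 and 12.04 in S42D. It was higher by 5.08 ± 0.057 (adjusted p = 5.4e-16). Il33, the gene of an alarmin cytokine of the interleukin-1 family, had 6.14, 5.75 and 5.70 against 10.65, 10.58 and 10.53, a difference of 4.72 ± 0.14 (adjusted p = 5.4e-12). Between S42D and S42A, 36.1% of genes were called. In each of these 3 genes the S42D line was also above S42A, by 2.35 ± 0.073 for Pdgfc, 1.25 ± 0.057 for Spry1 and 2.17 ± 0.14 for Il33 (adjusted p = 7.0e-12, 4.9e-10 and 2.4e-08).

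The rises of Angptl7 and Slc14a1 took S42D well above all 4 other lines. Angptl7, an angiopoietin-like secreted protein gene, had 5.86, 5.61 and 5.61 in the wild-type line and 11.13, 11.10 and 10.99 in S42D, with 5.71 in S42A, 5.67 in Tw1KD and 8.53 in parental cells. Slc14a1, a urea transporter gene, rose by 4.02 ± 0.065 to a mean of 11.79, against means between 7.77 and 8.53 in the other 4 lines. Tfpi, which encodes an inhibitor of the tissue factor pathway of coagulation, lay at 5.99, 5.997 and 5.54 and 10.39, 10.24 and 10.20. S42D exceeded S42A by 5.36 ± 0.086 for Angptl7, 3.87 ± 0.065 for Slc14a1 and 3.52 ± 0.10 for Tfpi (adjusted p = 9.8e-15, 1.2e-14 and 4.6e-12). Slc36a4, an amino acid transporter gene, rose by 4.42 ± 0.075 and Mxra8, a matrix remodelling-associated membrane protein gene, by 4.10 ± 0.067. Cdh5, the gene of VE-cadherin, rose by 4.31 ± 0.087, from 6.40, 6.30 and 6.36 to 10.66, 10.70 and 10.65. For Slc36a4, Mxra8 and Cdh5 the levels in the other lines are not given here, nor for Tfpi those in parental and Tw1KD cells.

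Others of the 14 were already high in the S42A line. F13a1, the gene of a transglutaminase subunit, had 7.71, 7.68 and 7.59 in the wild-type line and 12.37, 12.39 and 12.38 in S42D (4.72 ± 0.074), with 10.95 in S42A. Trim30a, a member of an interferon-induced family with near-identical copies, rose by 5.08 ± 0.089 to a mean of 10.61, against 10.15 in S42A. Itga8, an integrin subunit gene, rose by 4.55 ± 0.069 and stood below S42A (-0.36 ± 0.069, adjusted p = 8.2e-04). Xlr, from a multigene family on the X chromosome whose copies may share probes, was 4.70, 4.17 and 3.71 in the wild-type line and 9.74, 9.83 and 9.73 in S42D. The means of the other lines lay between 8.48 and 10.40, so only the wild-type line was low. For Xlr, Itga8 and Slc36a4 the wild-type level was among the dimmest 25% of genes, so the fold may be understated.

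The largest fall was that of Gatm, the enzyme of the first step of creatine synthesis. Its levels were 10.37, 10.45 and 10.41 in the wild-type line and 5.67, 5.62 and 5.34 in S42D, which is 29.1-fold lower (-4.86 ± 0.11, adjusted p = 4.2e-13). The S42D level lay at the border of the dimmest 25% of genes, so this fold may be understated. S42D and S42A were both low and differed by 0.075 ± 0.11 (adjusted p = 0.69). Tmem185b, a transmembrane protein gene, had 10.53, 10.52 and 10.53 and 6.07, 6.27 and 6.06, and Trim44, a tripartite motif protein gene, had 9.87, 9.86 and 9.82 and 5.98, 6.15 and 6.16. Dbt, which encodes a subunit of the branched-chain ketoacid dehydrogenase, fell by 3.32 ± 0.051, from 9.38, 9.34 and 9.38 to 5.97, 6.06 and 6.11. For Tmem185b, Trim44 and Dbt the S42D line was also below S42A, with S42D minus S42A at -2.87 ± 0.054, -2.64 ± 0.063 and -1.79 ± 0.051 (adjusted p = 3.3e-14, 4.5e-13 and 2.7e-12), and its means were the lowest of the 5 lines. Rassf6, a Ras-association domain gene (-3.03 ± 0.13), F5, the gene of coagulation factor V (-2.86 ± 0.12), and Cyp1b1, a cytochrome P450 gene (-2.86 ± 0.065), fell as well. So did Ddah2, which degrades methylated arginine (-2.95 ± 0.14), Mapk13, a p38 kinase gene (-2.77 ± 0.078), and Gpm6b, a membrane proteolipid gene (-2.84 ± 0.063).

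The remaining 4 of the 14 falls ended among the dimmest 25% of genes. Tlr7, a receptor for single-stranded RNA, had 7.06, 7.08 and 6.96 in the wild-type line and 4.12, 4.09 and 4.03 in S42D, and 4.04 in Tw1KD and 4.03 in parental cells. Aldh1l2, the mitochondrial formyltetrahydrofolate dehydrogenase gene, fell by 3.04 ± 0.11, with S42A at 5.42. Mmp1b (-3.02 ± 0.14) and Nlrp4e (-2.76 ± 0.14) belong to families of near-identical genes.

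TGF-beta family ligands signal through paired type I and type II receptors to Smad transcription factors, and are known inducers of epithelial-mesenchymal transition. Of 39 pathway genes measured, 18 (46.2%) were called higher in S42D and 6 (15.4%) lower, with a median difference of 0.14. Of the rises 9 reached 1.5-fold, and none of the falls did. Among the ligands, Tgfb2 had 7.23, 7.12 and 7.004 in the wild-type line and 8.70, 8.57 and 8.56 in S42D. The arrays did not overlap, and S42D was 2.82-fold higher (1.49 ± 0.090, adjusted p = 4.6e-09). S42D was above S42A as well (1.01 ± 0.090, adjusted p = 5.0e-07) and not called against parental cells (-0.16 ± 0.090, adjusted p = 0.20), a comparison in which 37% of genes were called.

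Inhba, the gene of the activin A subunit, moved further: 8.15, 8.15 and 8.14 in the wild-type line, 10.57, 10.36 and 10.48 in S42D, a difference of 2.32 ± 0.099 (adjusted p = 1.3e-10). Its S42D level was 2.67 ± 0.099 above S42A (adjusted p = 4.4e-11) and -0.031 ± 0.099 from parental cells (adjusted p = 0.84). Tgfb3 lay at 10.74, 10.71 and 10.74 and 11.61, 11.68 and 11.67 (0.92 ± 0.041). Tgfb1 was higher by 0.67 ± 0.039. Thus all 3 Tgfb ligand genes were higher in S42D.

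Receptor genes went in both directions. The largest difference was that of Tgfbr3, the gene of the co-receptor betaglycan, which rose from 10.22, 10.23 and 10.23 to 11.49, 11.52 and 11.52 (1.28 ± 0.049, adjusted p = 5.0e-11). Tgfbr2, the type II receptor, was 10.54, 10.60 and 10.58 in the wild-type line and 11.05, 11.10 and 11.13 in S42D (0.52 ± 0.037). Tgfbr1, the type I receptor, was lower in S42D, with 11.11, 11.11 and 11.11 against 10.76, 10.72 and 10.65 (-0.40 ± 0.045, adjusted p = 3.2e-06). The arrays did not overlap for any of these receptors. The other called receptor genes moved by small amounts: the BMP receptor gene Bmpr1a (0.26 ± 0.037) and the endoglin gene Eng (0.22 ± 0.037) were higher, and Acvr1 (-0.30 ± 0.037), Acvr2b (-0.27 ± 0.043) and Acvr1b (-0.18 ± 0.065), receptors of BMP and activin ligands, were lower. Acvr1b was not called without wild-type replicate 1 (-0.20), wild-type replicate 2 (-0.13), S42D replicate 1 (-0.17), S42D replicate 2 (-0.19) or S42D replicate 3 (-0.19).

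Of the signal transducers, Smad3 rose by 0.36 ± 0.036 and Smad2 differed by -0.13 ± 0.059 (adjusted p = 0.11). Smad5 was called lower by a small amount (-0.15, limma adjusted p = 0.0058). Among genes of inhibitors, Skil, a transcriptional co-repressor gene that TGF-beta induces, rose by 1.28 ± 0.060, from 8.46, 8.53 and 8.35 to 9.74, 9.73 and 9.70. The inhibitory Smad genes split: Smad6 rose by 0.50 ± 0.049 (adjusted p = 6.9e-07), and Smad7 was lower by a small amount (-0.13 ± 0.043, adjusted p = 0.027). Smad7 was not called without wild-type replicate 2 (-0.11), wild-type replicate 3 (-0.11), S42D replicate 1 (-0.12) or S42D replicate 2 (-0.12).

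**Figure D2:**
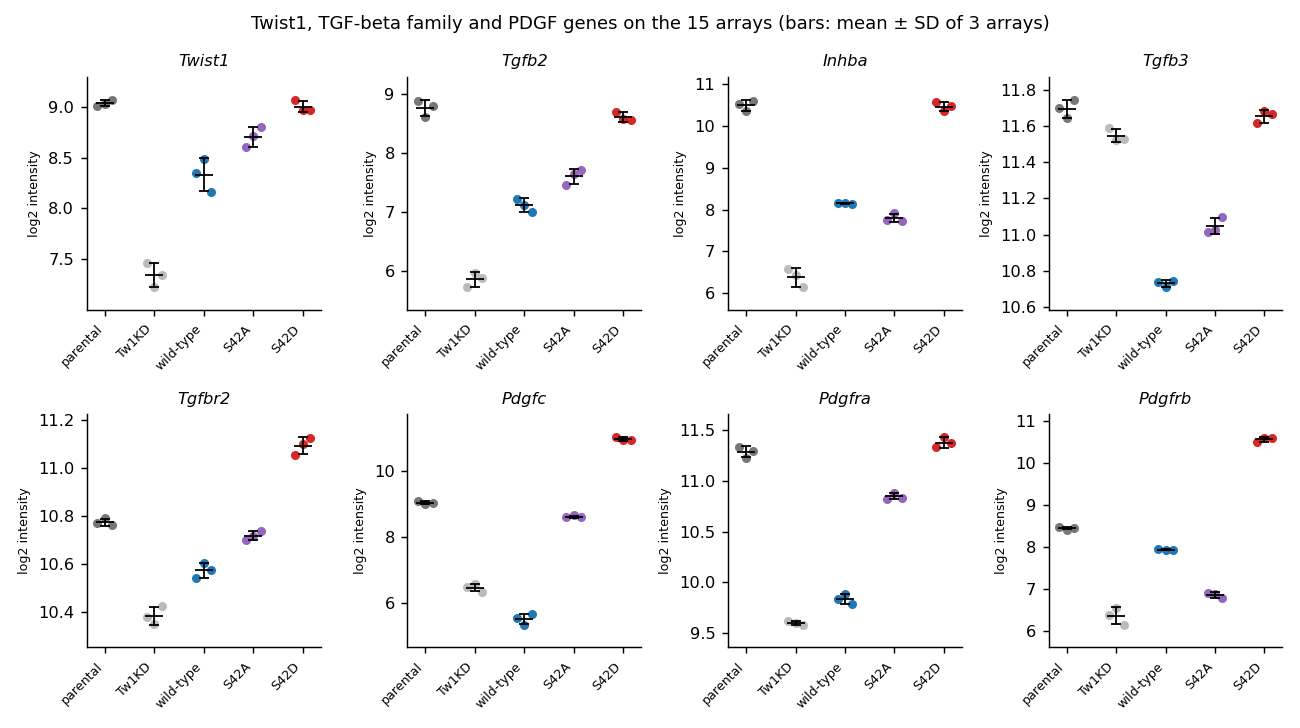
Log2 intensity on each of 3 arrays of 5 lines for Twist1 and 7 ligand and receptor genes; points are arrays and bars the mean ± SD. For Tgfb2, Inhba, Tgfb3, Pdgfc, Pdgfra and Pdgfrb the S42D arrays lie above all wild-type arrays, for example 10.49, 10.58 and 10.59 against 7.95, 7.93 and 7.93 for Pdgfrb.

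The promoter of Tgfb2 is shown because Twist1 binds E-boxes (CANNTG). The RefSeq window runs from 250 bases before to 50 bases after the gene start (chr1:186705940-186706239, minus strand, GRCm38.p6), and capitals mark its only E-box, which begins 51 bases before the start:
Tgfb2: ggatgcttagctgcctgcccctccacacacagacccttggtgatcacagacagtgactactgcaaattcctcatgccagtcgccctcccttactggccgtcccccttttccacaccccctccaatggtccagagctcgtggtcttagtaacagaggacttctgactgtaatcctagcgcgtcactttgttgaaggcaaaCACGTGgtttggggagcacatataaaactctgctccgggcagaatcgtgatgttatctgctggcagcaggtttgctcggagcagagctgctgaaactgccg
An E-box is common: 68.3% of all 19176 windows of tested genes held CANNTG on either strand (the motif read on 1 strand covers both). The shares were 69.9% among windows of genes at least 2-fold higher in S42D and 68.1% among those at least 2-fold lower. For CATCTG or CATATG, E-boxes that Twist1 is known to favour and which are counted among the CANNTG matches, searched on both strands, the shares were 16.3%, 15.1% and 15.6%. The E-box marked in Tgfb2, CACGTG, is not of these favoured forms. Windows of the TGF-beta list held CANNTG in 15 of 34 cases (44.1%) and a favoured form in 5 (14.7%). Binding of Twist1 was not tested.

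PDGF receptors are tyrosine kinases that signal through PI3K to Akt. Pdgfrb had 7.95, 7.93 and 7.93 in the wild-type line and 10.49, 10.58 and 10.59 in S42D, a 6.14-fold rise (2.62 ± 0.076, adjusted p = 3.1e-12). The S42D level exceeded that of S42A by 3.70 ± 0.076 and that of parental cells by 2.11 ± 0.076. Pdgfra had 9.84, 9.88 and 9.78 against 11.33, 11.43 and 11.37 (1.54 ± 0.043), with S42D above S42A by 0.53 ± 0.043 and 0.092 ± 0.043 from parental cells (adjusted p = 0.11). Both receptors and the ligand gene Pdgfc were therefore higher in S42D. Of the other ligand genes, chosen after their values were seen, Pdgfa rose by 0.997 ± 0.038 and Pdgfb by 0.29 ± 0.041, and Pdgfd was not called (-0.033 ± 0.050).

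Across the PI3K-Akt and growth factor receptor list, 18 of 36 genes (50%) were called higher and 9 lower, with a median of 0.22. Besides the PDGF receptors, Fgfr1, a fibroblast growth factor receptor gene, rose from 6.87, 6.81 and 6.88 to 8.56, 8.32 and 8.38 (1.56 ± 0.074). The adaptor genes of insulin signalling split: Irs1 was 10.68, 10.79 and 10.74 in the wild-type line and 9.09, 9.04 and 9.02 in S42D (-1.69 ± 0.061), while Irs2 rose (0.87 ± 0.054). The genes of the kinase that targets serine 42 split too. Akt1 was lower (-0.37 ± 0.036) and Akt2 higher (0.24 ± 0.035). Inpp5d, the gene of the lipid phosphatase SHIP1, rose by 2.08 ± 0.061, from 6.88, 6.91 and 6.82 to 9.04, 8.86 and 8.94. The genes of negative regulators Tsc1 (-0.63 ± 0.040) and Phlpp2 (-0.59 ± 0.050) fell.

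Epithelial genes did not move together. Of 43 junction and keratin genes, 10 were called higher, 10 lower and 23 not called, with a median of 0.0064. These shares were close to those of all genes tested. The claudin gene Cldn4, a tight junction component, fell from 9.75, 9.79 and 9.75 to 6.79, 7.22 and 7.45 (-2.61 ± 0.12). Cdh1, the gene of E-cadherin, was 8.52, 8.52 and 8.52 in the wild-type line and 7.58, 7.46 and 7.46 in S42D, 2.02-fold lower (-1.02 ± 0.045, adjusted p = 1.9e-10). It was nonetheless higher in S42D than in S42A, by 1.17 ± 0.045 (adjusted p = 6.6e-11), and the parental level was 10.31. The desmosomal gene Dsp (-1.86 ± 0.087) and the claudin gene Cldn3 (-1.13 ± 0.11) fell as well. Cldn4 and Cldn3 were about as low in S42A and not called between S42D and S42A. With 1 array left out, S42D minus S42A was -0.30 to 0.031 for Cldn4 and -0.017 to 0.028 for Cldn3.

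Against these falls, the occludin gene Ocln, also of the tight junction, rose from 7.53, 7.68 and 7.70 to 10.02, 9.90 and 9.89 (2.30 ± 0.078, adjusted p = 1.4e-11), above S42A (1.97 ± 0.078). Perp, a desmosomal p53 target gene, had 6.74, 6.55 and 6.80 against 8.94, 8.81 and 8.89 (2.18 ± 0.091), again above S42A (3.70 ± 0.091). The keratin gene Krt7 rose by 1.63 ± 0.056. Epcam, an epithelial adhesion gene, was dim in both lines, at 5.64, 5.64 and 5.69 and 5.49, 5.69 and 5.71 (-0.026 ± 0.21, adjusted p = 0.95). The list mean per array was 7.64 ± 0.0042 in the wild-type line and 7.68 ± 0.044 in S42D, both below 8.33 ± 0.016 in parental cells and 8.90 ± 0.019 in Tw1KD cells. S42A had the lowest mean, 7.34 ± 0.046.

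Of 33 mesenchymal markers, 12 were called higher (36.4%, against 20.7% of all genes), 3 lower and 18 were not called (median 0.13). The intermediate filament gene Vim, at 13.57, 13.52 and 13.58 and 13.49, 13.54 and 13.50, differed by -0.045 ± 0.033 (adjusted p = 0.34). Fn1 differed by 0.068 ± 0.037 (adjusted p = 0.18), and Cdh2, the N-cadherin gene, by 0.032 ± 0.061 (adjusted p = 0.74). Vim and Fn1 lay close to the array maxima (13.90 to 14.01 on these 6 arrays), where differences can be compressed. The rises were led by the collagen VI genes. Col6a2 went from 7.31, 7.39 and 7.29 to 10.17, 10.08 and 10.20 (2.82 ± 0.062, adjusted p = 2.3e-13) and Col6a1 from 9.67, 9.74 and 9.71 to 11.84, 11.90 and 11.86 (2.16 ± 0.056, adjusted p = 1.0e-12). Both were above S42A, by 2.44 ± 0.062 and 2.04 ± 0.056. Mmp14, a membrane-bound matrix protease gene, rose by 0.79 ± 0.035. The 3 falls were Tnc (-0.58 ± 0.097), Lox (-0.37 ± 0.065) and Cdh11 (-0.28 ± 0.072), the genes of tenascin C, lysyl oxidase and cadherin 11.

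Among transcription factors of the transition, 8 of 24 (33.3%) were called higher and 5 (20.8%) lower (median 0.048). Snai1 (-0.011 ± 0.054, adjusted p = 0.91), Snai2 (0.0080 ± 0.064, adjusted p = 0.95) and Zeb2 (-0.082 ± 0.046, adjusted p = 0.18) were not called. Zeb1 rose by 0.36 ± 0.058 to a mean of 5.63. Its wild-type level was among the dimmest 25% of genes, so this rise may be understated. The Id proteins lack a DNA-binding region and sequester E proteins, the partners of Twist1. Id3 was 8.51, 8.73 and 8.69 in the wild-type line and 7.16, 7.14 and 7.12 in S42D, 2.83-fold lower (-1.50 ± 0.082, adjusted p = 1.7e-09), and also lower than in S42A (-1.28 ± 0.082). Id1 was 10.21, 10.18 and 10.10 against 9.11, 9.08 and 9.16 (-1.05 ± 0.051, adjusted p = 5.1e-10), again below S42A (-0.65 ± 0.051). The other Id genes went the opposite way: Id4 rose by 0.65 ± 0.076 and Id2 by 0.46 ± 0.053. Tcf4, an E protein gene, rose by 0.79 ± 0.035, from 11.08, 11.05 and 11.03 to 11.88, 11.86 and 11.80. The other 3 falls were small: Etv4 (-0.16 ± 0.048), Etv5 (-0.15 ± 0.042) and Foxc2 (-0.15 ± 0.054). Etv4 was not called without wild-type replicate 1 (-0.15), and Foxc2 not without wild-type replicate 2 (-0.15), wild-type replicate 3 (-0.13), S42D replicate 1 (-0.16), S42D replicate 2 (-0.15) or S42D replicate 3 (-0.14). Foxc2 was also not called with quantile normalization (-0.12) or a replicate block (-0.15).

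**Figure D3:**
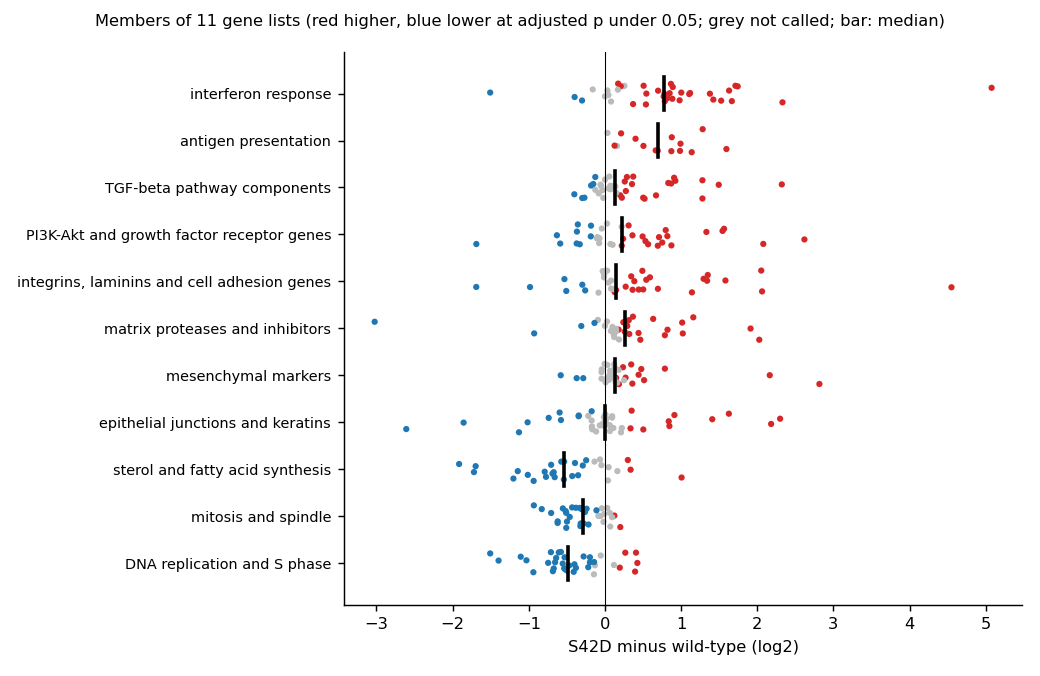
Each point is a member of 1 of 11 gene lists, placed by S42D minus wild-type (log2); red points were called higher, blue lower and grey not called, and black bars are list medians. Interferon and antigen presentation genes lie to the right (medians 0.78 and 0.69), and sterol, mitosis and replication genes to the left (medians -0.54, -0.29 and -0.49).

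Other matrix genes rose more often than they fell, with 13 of 35 called higher (37.1%) and 2 lower (median 0.11). Bgn, the gene of the small proteoglycan biglycan, was 7.65, 7.85 and 7.64 in the wild-type line and 10.85, 10.80 and 10.82 in S42D, 8.64-fold higher (3.11 ± 0.094, adjusted p = 5.1e-12). Ogn, which encodes osteoglycin of the same family, had 6.35, 6.24 and 6.25 against 9.22, 9.07 and 8.89 (2.78 ± 0.11). In both genes S42D was above S42A, by 3.98 ± 0.094 and 2.17 ± 0.11, and Ogn stayed below parental cells (-1.14 ± 0.11). Igfbp7, the gene of a secreted IGF-binding protein, rose by 1.001 ± 0.087. The 2 falls were Tnxb, the tenascin X gene, from 8.88, 8.82 and 8.84 to 6.50, 6.25 and 6.42 (-2.46 ± 0.085), and the dermatopontin gene Dpt (-0.49 ± 0.12).

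Genes of matrix proteases and their inhibitors were called higher for 19 of 33 (57.6%) and lower for 4 (median 0.26). Mmp9, the gelatinase B gene, was 8.66, 8.76 and 8.69 in the wild-type line and 10.79, 10.70 and 10.70 in S42D (2.03 ± 0.057, adjusted p = 2.4e-12). S42D exceeded S42A by 3.52 ± 0.057 and lay below parental cells by a difference of -0.80 ± 0.057. Plat, the tissue plasminogen activator gene, rose by 1.16 ± 0.091. Adam19, a membrane metalloprotease gene, rose from 7.12, 6.97 and 6.98 to 8.95, 8.96 and 8.91 (1.91 ± 0.049). The 4 falls were Mmp1b, Mmp1a (-0.93 ± 0.060), whose sequence is close to that of Mmp1b, Ctsk (-0.31 ± 0.097) and Mmp12 (-0.14 ± 0.051). Ctsk, a cathepsin gene, was not called without wild-type replicate 1 (-0.26), wild-type replicate 2 (-0.25) or S42D replicate 1 (-0.29). Mmp12 was not called without wild-type replicate 1 (-0.14), wild-type replicate 3 (-0.094), S42D replicate 1 (-0.12) or S42D replicate 2 (-0.13). Its call was also lost with only the 6 arrays fitted or with intensity trend and robust estimation (-0.14 in both).

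Integrins link cells to the matrix and to each other. Of 37 integrin, laminin and adhesion genes, 20 (54.1%) were called higher and 6 lower (median 0.15), 8 of the rises at least 2-fold. The genes of a pair of collagen-binding alpha subunits went opposite ways. Itga1 rose from 8.74, 8.80 and 8.74 to 10.78, 10.85 and 10.79 (2.05 ± 0.072). Itga2 fell from 9.33, 9.33 and 9.33 to 7.79, 7.68 and 7.45 (-1.69 ± 0.090). Alcam, an immunoglobulin-type adhesion gene, rose by 2.06 ± 0.050. Vcam1 (-0.98 ± 0.060), which binds leukocyte integrins, and the laminin gene Lamb3 (-0.53 ± 0.060) fell. Alcam, Itga2 and Lamb3 differed much less between S42D and S42A. With a replicate block fitted, S42D minus S42A was 0.15 for Alcam, -0.26 for Itga2 and -0.17 for Lamb3, and these were not called in that fit. S42A values are not given here for Itga1 and Vcam1.

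The interferon response moved mostly upward. These genes are induced through Stat and Irf factors and encode antiviral effectors and sensors of viral RNA. Of 39 measured, 28 (71.8%) were called higher in S42D, 12 of them at least 2-fold, and 3 lower, with a median of 0.78. Ifih1, the RNA sensor MDA5, was 6.68, 6.84 and 6.62 in the wild-type line and 8.52, 8.41 and 8.43 in S42D (1.74 ± 0.073, adjusted p = 1.1e-10). Samd9l, a translation inhibitor gene, had 4.76, 4.80 and 4.86 against 7.27, 7.22 and 6.93 (2.33 ± 0.085). The wild-type level of Samd9l was among the dimmest 25% of genes, so its rise may be understated. With Trim30a these were the 3 largest rises of the list. The 3 falls were Oasl1 (-1.51 ± 0.064), Irf5 (-0.40 ± 0.077) and Eif2ak2 (-0.30 ± 0.070), which encodes the kinase PKR.

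The lowest interferon list mean of the 5 lines was that of the wild-type line. It was 7.07 ± 0.029 there (mean of members, mean ± SD over 3 arrays), 7.85 ± 0.031 in S42D, 7.45 ± 0.035 in parental cells, 7.59 ± 0.062 in Tw1KD and 8.68 ± 0.065 in S42A. Members differed in where S42D stood against S42A: Samd9l was lower in S42D (-1.72 ± 0.085) and Ifih1 higher (1.02 ± 0.073). Oasl1 was lower in S42D than in S42A (-2.33 ± 0.064).

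Promoters of the called-higher interferon genes with the largest differences among those whose window held an interferon-stimulated response element (GAAA, any 2 bases, then GAAA, on either strand) are those of Trim30a (chr7:104465144-104465443, minus strand) and Ifih1 (chr2:62646206-62646505, minus strand), GRCm38.p6, with the element in capitals:
Trim30a: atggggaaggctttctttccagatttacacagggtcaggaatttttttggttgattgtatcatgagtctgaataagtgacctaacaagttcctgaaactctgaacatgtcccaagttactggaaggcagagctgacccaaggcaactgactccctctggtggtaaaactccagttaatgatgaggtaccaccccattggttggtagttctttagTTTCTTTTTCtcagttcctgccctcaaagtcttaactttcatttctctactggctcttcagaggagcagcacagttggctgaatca
Ifih1: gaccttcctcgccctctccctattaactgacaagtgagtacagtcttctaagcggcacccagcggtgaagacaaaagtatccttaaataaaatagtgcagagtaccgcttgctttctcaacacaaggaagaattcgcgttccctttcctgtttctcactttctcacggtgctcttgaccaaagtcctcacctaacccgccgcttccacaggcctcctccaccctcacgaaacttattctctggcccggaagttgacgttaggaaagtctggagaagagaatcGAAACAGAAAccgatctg
In Trim30a the element begins 36 bases before the gene start and reads on the opposite strand, and in Ifih1 it begins 32 bases after it. The element was found in 15 of 36 windows of the interferon list (41.7%), against 3.27% of windows of all genes tested. Windows of genes at least 2-fold higher in S42D held it in 4.43% of cases.

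Most antigen presentation genes rose in the same comparison: 13 of 15 were called higher (86.7%) and none lower (median 0.69). The other 2 were the class II gene H2-Aa, which was not called (0.033 ± 0.069), and the class I regulator gene Nlrc5, which was not called at the probe set that stood for it (0.16 ± 0.081). All 19 probe sets of Nlrc5 had a positive difference, and 12 of them were called higher in a limma fit over all probe sets with 1 gene symbol. The immunoproteasome gene Psmb8 was 6.99, 7.03 and 6.68 in the wild-type line and 8.14, 8.21 and 8.21 in S42D (1.28 ± 0.12, adjusted p = 4.9e-07). Erap1, a peptide-trimming protease gene, rose by 1.14 ± 0.089. Cd74, the invariant chain of class II molecules, had 8.89, 8.80 and 8.82 against 10.52, 10.43 and 10.34 (1.60 ± 0.074), and stood above S42A by 3.92 ± 0.074. The list mean was 8.87 ± 0.019 in S42D and 8.90 ± 0.022 in parental cells, against 8.17 ± 0.024 in the wild-type line. Tw1KD (8.59 ± 0.026) and S42A (8.54 ± 0.0125) lay between, so the wild-type line was the lowest of the 5. H2 genes have near-identical copies, so which member was read is uncertain.

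Of 25 inflammasome and cell death genes, 10 (40%) were called higher and 6 (24%) lower (median 0.087). The largest rises were the inflammasome DNA sensor Aim2, from 6.35, 6.33 and 6.11 to 8.78, 8.48 and 8.77 (2.41 ± 0.10), and the pore-forming effector Gsdmd (1.27 ± 0.087). Birc3, an inhibitor of apoptosis, rose by 1.24 ± 0.093. Genes of the apoptosis effector Bak1 (-0.70 ± 0.047), the death receptor Tnfrsf10b (-0.54 ± 0.048) and the survival factor Mcl1 (-0.53 ± 0.045) fell.

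Cytokine genes went in both directions. With 38 measured, 13 (34.2%) were called higher and 7 (18.4%) lower (median 0.089). After Il33, the largest rises were Csf2, the GM-CSF gene, from 5.10, 5.30 and 5.43 to 7.28, 6.81 and 6.36 (1.54 ± 0.17) and Tnfsf10, the death ligand TRAIL (1.49 ± 0.13). The wild-type level of Csf2 was among the dimmest 25% of genes, so its rise may be understated. The largest falls were 3 chemokine genes. Ccl2, which attracts monocytes, was 10.91, 11.01 and 10.93 in the wild-type line and 9.25, 9.29 and 9.20 in S42D, 3.25-fold lower (-1.70 ± 0.16, adjusted p = 3.8e-07), while S42D and S42A differed by 0.041 ± 0.16 (adjusted p = 0.89). Ccl7, a close relative (-2.04 ± 0.11), and Cxcl5, which attracts neutrophils (-2.05 ± 0.084), fell.

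Among cytokine receptors and leukocyte-linked genes, 17 of 32 (53.1%) were called higher and 5 lower (median 0.23). Lifr, the receptor of leukaemia inhibitory factor, was 5.46, 5.70 and 5.62 in the wild-type line and 7.93, 7.61 and 7.63 in S42D (2.13 ± 0.086), with no other line above 5.71. Lilr4b rose by 1.995 ± 0.14 and Lilrb4a by 1.74 ± 0.18, leukocyte receptor genes that share sequence. The 5 falls were Cd14, the co-receptor for bacterial lipopolysaccharide (-1.23 ± 0.10), Il13ra2 (-1.09 ± 0.11), Il6ra (-0.79 ± 0.045), Tlr4 (-0.36 ± 0.065) and Tnfrsf1a (-0.35 ± 0.051).

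Most genes of the replication and mitosis lists were called lower in S42D. In the replication list, 27 of 36 (75%) were called lower and 5 higher (median -0.49). The cyclin gene Ccne2, which drives entry into S phase, was 9.87, 9.87 and 9.87 in the wild-type line and 8.53, 8.27 and 8.29 in S42D (-1.51 ± 0.078, adjusted p = 1.0e-09). Fen1, the flap endonuclease of lagging-strand synthesis, had 9.63, 9.70 and 9.56 against 8.36, 8.14 and 8.20 (-1.40 ± 0.065). Mcm10, a replication initiation factor gene, fell by 1.11 ± 0.044. The 5 rises were small: Chaf1b (0.43 ± 0.047), Lig1 (0.41 ± 0.040), Tk1 (0.40 ± 0.043), Pole (0.27 ± 0.040) and Pole2 (0.19 ± 0.042). Pole2 was not called with median centring (0.15).

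Mitosis and spindle genes shifted less: 23 of 34 were called lower (67.6%) and 2 higher (median -0.29), with no difference reaching 2-fold. The centrosomal kinase genes Nek2 (-0.93 ± 0.055) and Aurka (-0.83 ± 0.039) fell most, the latter from 11.54, 11.46 and 11.46 to 10.67, 10.64 and 10.66. The chromosome kinesin gene Kif4 came next (-0.71 ± 0.12). The rises were Ect2 (0.20 ± 0.039) and Ccna2 (0.12 ± 0.035), the latter not called with median centring (0.080). The 9 members not called included markers of proliferating cells, with Mki67 at -0.010 ± 0.066, Aurkb at -0.019 ± 0.036, Ccnb2 at -0.040 ± 0.037, Plk1 at -0.058 ± 0.042 and Birc5 at -0.085 ± 0.042. The mean level of the replication list was 10.72 ± 0.011 in the wild-type line, 10.47 ± 0.028 in S42A, 10.30 ± 0.015 in S42D, 9.95 ± 0.056 in Tw1KD and 9.72 ± 0.035 in parental cells. In that order S42D lay between the wild-type line and the lines without added Twist1. In bulk RNA, fewer cells in a phase and less RNA per cell cannot be told apart.

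Cyclins D and cell cycle inhibitors moved little, with no difference reaching 1.5-fold. The 5 rises were Rb1 (0.31 ± 0.049), Myc (0.30 ± 0.043), Cdkn1b (0.27 ± 0.046, not called at a dimmer probe set), Ccnd1 (0.13 ± 0.034) and Cdk6 (0.13 ± 0.038), and Ccnd1 and Cdk6 were not called with median centring (0.090 and 0.085). The 4 falls were Btg2 (-0.47 ± 0.053), Rbl1 (-0.44 ± 0.041), Ccnd3 (-0.33 ± 0.043) and Ccnd2 (-0.13 ± 0.035). The other 10 of 19 were not called. The called shares, 26.3% higher and 21.1% lower, were close to those of all genes (20.7% and 22.6%).

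E2F factors are known activators of replication genes, so promoters of the called-lower members with the largest differences among those whose window held TTTGGCGC or TTTCGCGC (both strands) are shown with the match in capitals, Mcm3 (chr1:20820263-20820562, minus strand) and Pola1 (chrX:93632106-93632405, minus strand), GRCm38.p6:
Mcm3: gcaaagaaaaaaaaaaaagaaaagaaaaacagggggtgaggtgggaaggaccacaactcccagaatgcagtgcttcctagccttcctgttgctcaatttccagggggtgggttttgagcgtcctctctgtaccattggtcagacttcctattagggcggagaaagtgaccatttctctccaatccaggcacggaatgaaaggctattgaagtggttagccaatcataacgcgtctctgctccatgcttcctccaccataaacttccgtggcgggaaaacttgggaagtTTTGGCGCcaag
Pola1: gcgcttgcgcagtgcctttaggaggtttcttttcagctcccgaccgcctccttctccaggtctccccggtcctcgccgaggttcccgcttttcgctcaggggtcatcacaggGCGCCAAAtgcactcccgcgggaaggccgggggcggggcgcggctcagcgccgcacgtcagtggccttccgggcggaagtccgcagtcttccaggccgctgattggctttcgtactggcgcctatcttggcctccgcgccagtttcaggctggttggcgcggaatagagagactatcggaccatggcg
The match begins 38 bases after the gene start in Mcm3 and 138 bases before it in Pola1. Mcm3 differed by -1.03 ± 0.041 and Pola1 by -0.71 ± 0.065 between S42D and wild-type. Of the replication list's windows 11 of 37 held it (29.7%), against 1.13% of windows of all genes tested and 2.03% of those of genes at least 2-fold lower in S42D.

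Sterol and fatty acid synthesis genes, which are targets of the Srebf factors, were called lower for 21 of 30 (70%) and higher for 3 (median -0.54). Hsd17b7, an enzyme of late cholesterol synthesis, was 11.18, 11.18 and 11.20 in the wild-type line and 9.37, 9.19 and 9.25 in S42D, 3.77-fold lower (-1.92 ± 0.053, adjusted p = 2.2e-12). Cyp51, the lanosterol demethylase gene, had 10.17, 10.19 and 10.13 against 8.47, 8.41 and 8.44 (-1.72 ± 0.096), and Idi1, of isoprenoid synthesis, 11.004, 11.09 and 11.05 against 9.45, 9.29 and 9.31 (-1.70 ± 0.080). S42D was below S42A in each, with differences of -1.38 ± 0.053, -1.76 ± 0.096 and -1.68 ± 0.080. The rises were Acacb (1.01 ± 0.044), Dhcr7 (0.34 ± 0.042) and Insig1 (0.30 ± 0.043). The list mean was 10.15 ± 0.010 in S42D and 10.20 ± 0.026 in parental cells, with 10.68 ± 0.012 in the wild-type line and 10.66 ± 0.023 in S42A. Tw1KD cells had the lowest mean, 9.75 ± 0.062.

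A sterol regulatory element of the form TCACNCCAC (both strands) was found in 1 of 28 windows of this list, and in 1.18% of windows of all genes tested. It was that of Hmgcs1, the synthase that precedes the rate-limiting reductase (chr13:119690101-119690400, plus strand, GRCm38.p6), where the element, in capitals, begins 137 bases before the gene start:
Hmgcs1: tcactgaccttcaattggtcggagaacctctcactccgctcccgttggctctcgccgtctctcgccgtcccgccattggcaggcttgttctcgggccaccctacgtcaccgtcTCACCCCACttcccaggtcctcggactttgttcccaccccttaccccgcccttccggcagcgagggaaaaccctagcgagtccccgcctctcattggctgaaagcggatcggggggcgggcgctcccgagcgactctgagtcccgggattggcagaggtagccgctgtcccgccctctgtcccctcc
Hmgcs1 itself was lower in S42D (-1.01 ± 0.051). Absence of a match says only that these letters are not in the window.

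**Figure D4:**
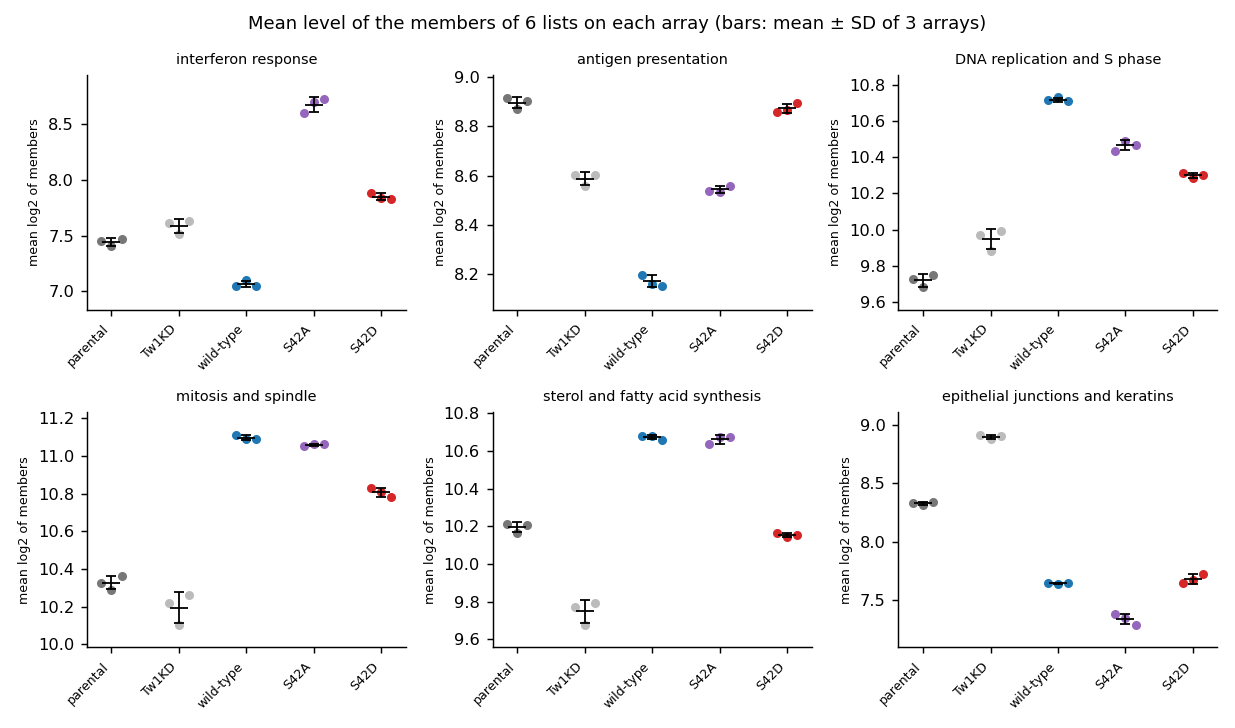
Mean log2 level of the members of 6 lists on each array of the 5 lines; points are arrays and bars the mean ± SD of 3 arrays. Interferon list means are 7.07 ± 0.029 in the wild-type and 7.85 ± 0.031 in the S42D line, and sterol list means 10.68 ± 0.012 and 10.15 ± 0.010.

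Stress genes moved in both directions (12 of 41 or 29.3% higher, 16 or 39% lower, median 0.011). The stress factor gene Atf3 fell from 10.36, 10.43 and 10.40 to 8.70, 8.46 and 8.37 (-1.89 ± 0.066), and Sesn2, a stress-induced inhibitor gene of mTORC1, fell by 0.79 ± 0.094. Pck2, the mitochondrial PEP carboxykinase gene, rose by 1.16 ± 0.043, Ddit4 by 0.58 ± 0.047 and the endoplasmic reticulum chaperone gene Dnajb9 by 0.57 ± 0.036. Glutathione and xenobiotic enzymes were called higher for 9 of 31 (29%) and lower for 10 (32.3%). The transferase genes Gstt1 (2.33 ± 0.088) and Gstm5 (1.55 ± 0.081), the latter with near copies, and the aldehyde dehydrogenase gene Aldh3a1 (1.52 ± 0.047) rose. The haem oxygenase gene Hmox1 fell from 10.03, 10.07 and 9.96 to 7.73, 7.81 and 7.70 (-2.27 ± 0.047), and Gclm, of glutathione synthesis, fell as well (-1.30 ± 0.045).

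Hypoxia and glycolysis genes were called higher for 15 of 36 (41.7%) and lower for 10 (27.8%), with a median of 0.050. The carbonic anhydrase genes, which regulate pH at the cell surface, rose: Car12 from 6.94, 7.08 and 6.96 to 11.57, 11.51 and 11.51 (4.54 ± 0.049) and Car9 from 8.47, 8.40 and 8.24 to 10.23, 10.12 and 10.20 (1.81 ± 0.076). Aldoc, an aldolase gene, rose by 2.19 ± 0.079. In contrast, Adm, the gene of the peptide adrenomedullin, fell from 7.75, 7.61 and 7.64 to 5.25, 5.82 and 5.66 (-2.09 ± 0.12), and Ldhb, a lactate dehydrogenase gene (-2.31 ± 0.071), and Pfkfb3, an activator of glycolysis (-1.19 ± 0.076), fell.

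Genes of angiogenic factors, semaphorins and guidance receptors were called higher for 21 of 46 (45.7%), 11 of them at least 2-fold, and lower for 6 (median 0.11). Calcrl, the receptor through which adrenomedullin acts, rose from 5.07, 4.85 and 5.15 to 8.90, 8.71 and 8.82 (3.78 ± 0.084, adjusted p = 2.7e-13), against the fall of Adm. The wild-type level of Calcrl was among the dimmest 25% of genes, so its rise may be understated. Sema7a, a membrane-anchored semaphorin gene, had 8.79, 8.74 and 8.73 against 11.91, 11.97 and 11.93 (3.18 ± 0.086), and S42D stood above S42A by 5.39 ± 0.086. Angpt1, a ligand of the receptor Tie2, rose by 2.25 ± 0.091 but was lower than in S42A (-0.99 ± 0.091). Sema3c fell from 7.25, 7.19 and 6.87 to 5.21, 5.16 and 5.18 (-1.92 ± 0.085), and Flt1, a VEGF receptor gene (-0.72 ± 0.081), and Vegfc, a ligand gene of the same family (-0.66 ± 0.086), fell. The S42D level of Sema3c was among the dimmest 25% of genes, so its fall may be understated.

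In the remaining lists single genes stood out. Of the ERK brakes and immediate-early genes, 14 of 33 (42.4%) were called higher and 11 (33.3%) lower (median difference 0.079). After Spry1, the largest rises were the immediate-early genes Fos (0.99 ± 0.080) and Fosb (0.92 ± 0.068). The transcription factor genes Klf4 (-0.69 ± 0.058) and Klf6 (-0.41 ± 0.040) and the phosphatase gene Dusp10 (-0.53 ± 0.037) fell. Among Wnt pathway genes, 9 of 41 (22%) were called higher and 9 (22%) lower (median difference 0.028). These shares were close to those of all genes (20.7% and 22.6%). Notum, a secreted Wnt inhibitor gene, rose from 7.42, 7.41 and 7.51 to 8.63, 8.54 and 8.55 (1.12 ± 0.12). Znrf3, a ligase gene that removes Wnt receptors, rose (0.57 ± 0.041) and its relative Rnf43 fell (-0.68 ± 0.055). The ligand gene Wnt10a rose (0.57 ± 0.054), and the ligand gene Wnt7b (-0.53 ± 0.046) and the receptor gene Fzd7 (-0.48 ± 0.050) fell. For IGF ligands and binding proteins, 8 of 19 (42.1%) were called higher and 1 (5.26%) lower (median difference 0.11). The fall was that of Irs1, and Stc2, a secreted glycoprotein gene, rose by 0.97 ± 0.084.

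Of mammary stem and lineage markers, 10 of 35 (28.6%) were called higher and 5 (14.3%) lower (median difference 0.071), against 20.7% and 22.6% of all genes. The oestrogen receptor gene Esr1 rose from 6.79, 6.96 and 6.99 to 8.87, 8.88 and 8.92 (1.98 ± 0.055), and its luminal partner gene Foxa1 fell from 8.44, 8.46 and 8.48 to 6.88, 6.93 and 7.05 (-1.51 ± 0.083). Procr, a protein C receptor gene (0.85 ± 0.060), and Notch1 (0.42 ± 0.056) rose. Bmi1, a Polycomb gene (-1.44 ± 0.059), Cd24a, a surface glycoprotein gene (-0.87 ± 0.067), the Notch target gene Hey1 (-0.42 ± 0.076) and the luminal factor gene Gata3 (-0.10 ± 0.036) fell. Gata3 was not called without wild-type replicate 1 (-0.10), wild-type replicate 2 (-0.10), wild-type replicate 3 (-0.10), S42D replicate 2 (-0.091) or S42D replicate 3 (-0.084). Its call was also lost with only the 6 arrays fitted or with a replicate block (-0.098 in both). Of mitochondrial genes, 8 of 32 (25%) were called higher and 9 (28.1%) lower (median difference -0.044). Ppargc1a, the coactivator gene of mitochondrial biogenesis, was 5.58, 5.22 and 5.73 in the wild-type line and 9.001, 8.94 and 8.86 in S42D (3.43 ± 0.12), and its level in S42A was higher still (-2.34 ± 0.12 for S42D minus S42A). Its relatives Ppargc1b (-0.53 ± 0.041) and Pprc1 (-0.51 ± 0.041) fell. The respiratory chain genes Ndufb5 (0.54 ± 0.057) and Ndufs1 (-0.82 ± 0.050) went opposite ways, and Ogdh, of the citric acid cycle, rose (0.52 ± 0.042). In the p53 response list, 10 of 26 (38.5%) were called higher and 9 (34.6%) lower (median difference 0.11), with Perp the only called gene past 2-fold. Gadd45b (0.95 ± 0.070) and Ccng2 (0.71 ± 0.057) rose and Trp53inp1 fell (-0.58 ± 0.073).

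The carcinoma markers Krt8 (mean 13.18 and 13.11 in the wild-type and S42D lines) and Krt18 (12.31 and 12.66) were high in both, Cdh1 was intermediate and Epcam was dim. Of endothelial markers, 1 of 13 (Cdh5) was called higher and 1 (Tie1, -0.17 ± 0.057) lower. Their summed linear intensity was 799 to 835 in the wild-type and 2300 to 2380 in the S42D arrays, and the defining gene Pecam1 lay at 5.53 and 5.52. Cdh5 was the only member with a called rise in that sum, and the list median was -0.011. Leukocyte markers were called for 4 of 20: Lyz2 (0.71 ± 0.13), Csf1r (0.29 ± 0.067) and Cd79a (0.19 ± 0.074) higher and S100a8 (-1.01 ± 0.12) lower. The sum was 1020 to 1040 in the wild-type and 932 to 995 in the S42D arrays, 10 members were among the dimmest 25% of genes on all 6 arrays, and the pan-leukocyte gene Ptprc was at 5.12 and 5.11.

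Fibroblast markers were called higher for Pdgfra and Dcn (0.84 ± 0.087) and lower for Dpt and Pi16 (-0.52 ± 0.089) of 12, with sums of 2050 to 2110 in the wild-type and 3640 to 3830 in the S42D arrays. A sum weighs bright genes most. Pdgfra was the only member called at least 2-fold higher, and the list median was 0.041. The part of other cell types in the results above was not tested beyond these values. Of 12 adipocyte and muscle markers, Acta1 (0.69 ± 0.068) and Tnnt3 (0.33 ± 0.11) were called higher and Adipoq (-0.23 ± 0.072) lower, with sums of 944 to 1000 in the wild-type and 1100 to 1110 in the S42D arrays. Housekeeping genes were called for 9 of 15. Gusb (0.77 ± 0.041), Rplp0 (0.18 ± 0.044), Sdha (0.13 ± 0.038) and B2m (0.13 ± 0.036) were higher. Tfrc, the transferrin receptor gene (-1.87 ± 0.046), Tbp (-0.56 ± 0.041), Hprt (-0.36 ± 0.070), Polr2a (-0.18 ± 0.052) and Ywhaz (-0.14 ± 0.034) were lower. Sdha and B2m were not called with median centring (0.085 and 0.082).

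Of the small differences among these markers, several were not called when 1 array was left out. This held for Tie1 without wild-type replicate 1 (-0.18), wild-type replicate 3 (-0.12), S42D replicate 1 (-0.17), S42D replicate 2 (-0.17) or S42D replicate 3 (-0.17). It held for Cd79a without wild-type replicate 1 (0.21), wild-type replicate 2 (0.21), wild-type replicate 3 (0.15), S42D replicate 2 (0.15) or S42D replicate 3 (0.16). Adipoq was not called without wild-type replicate 2 (-0.18), S42D replicate 1 (-0.22) or S42D replicate 3 (-0.21), Tnnt3 without wild-type replicate 1 (0.29) or S42D replicate 2 (0.31) and Polr2a without S42D replicate 1 (-0.16) or S42D replicate 3 (-0.16). Sdha was not called without wild-type replicate 1 (0.11), nor B2m without wild-type replicate 2 (0.10). Without S42D replicate 3, 2 leukocyte markers were called lower in place of 1. Some calls were also lost with all arrays kept. Cd79a was not called with median centring (0.15) or quantile normalization (0.18). Its call was lost as well with only the 6 arrays fitted, a replicate block, or intensity trend and robust estimation (0.19 in each). Tie1 was not called with intensity trend and robust estimation (-0.17), nor Tnnt3 with quantile normalization (0.28).

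Parental against Tw1KD cells compares cells before and after depletion of endogenous Twist1. Its means come from arrays that do not enter the means of the S42D comparison. The spread of each gene was estimated from all 15 arrays for both, so calls in the 2 comparisons are not independent. Over all 19937 genes, 16.4% were called higher and 19.9% lower in parental cells. Of the 639 genes at least 2-fold higher in S42D than in the wild-type line, 311 (48.7%) were called higher in parental than in Tw1KD cells and 143 (22.4%) lower. Of the 322 at least 2-fold lower, 135 (41.9%) were called lower in parental cells and 87 (27%) higher. At 2-fold on both sides, 120 genes were higher in both comparisons, 18.8% of the S42D rises and 37.2% of the 323 parental ones (1.62% of genes), and 32 were lower in both (9.94% of the S42D falls and 15.5% of the parental ones, which were 1.03% of genes). Opposite directions held for 24 and 22 genes. The correlation of the differences across all genes was 0.20 (Pearson) and 0.16 (Spearman), a description over genes, which are not independent.

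Genes named above were among the shared rises. Inhba was 4.13 ± 0.099 higher in parental than Tw1KD cells and 2.32 ± 0.099 higher in S42D than in the wild-type line. The corresponding values were 2.92 ± 0.090 and 1.49 ± 0.090 for Tgfb2, 4.85 ± 0.11 and 2.78 ± 0.11 for Ogn, 4.15 ± 0.084 and 3.78 ± 0.084 for Calcrl, and 2.58 ± 0.073 and 5.46 ± 0.073 for Pdgfc. Hsd17b11, a steroid and lipid-droplet dehydrogenase gene, rose by 0.99 ± 0.098 in S42D, from 9.79, 9.83 and 9.79 to 10.78, 10.78 and 10.83, where parental cells exceeded Tw1KD by 5.48 ± 0.098 and S42A lay at 4.98. Other large S42D rises had small parental differences: Mxra8 0.42 ± 0.067, Slc14a1 0.67 ± 0.065 and Sema7a 0.47 ± 0.086. Gpm6b went opposite ways, 3.97 ± 0.063 in parental cells and -2.84 ± 0.063 in S42D. Ppargc1a, lower in parental cells by a difference of -1.70 ± 0.12, was higher in S42D.

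**Figure D5:**
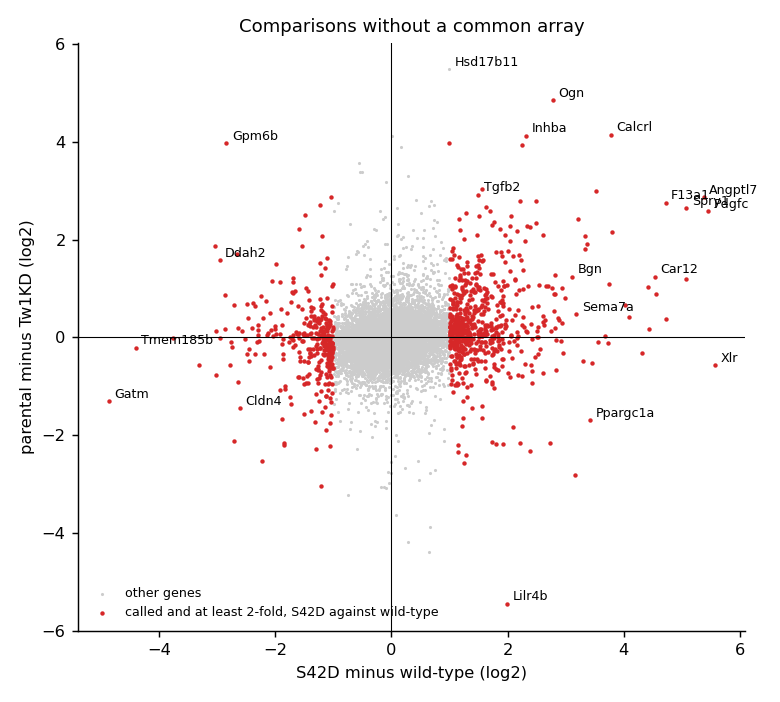
Each point is a gene, with S42D minus wild-type (log2) on the horizontal and parental minus Tw1KD (log2) on the vertical axis. The means compared have no array in common, while the calls rest on a spread estimated from all arrays. Genes called and at least 2-fold different between S42D and wild-type are red; 120 of them lie past 2-fold in the upper right and 32 in the lower left.

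Compared with the other contrasts between the re-expressing lines, which share arrays with it, S42D against wild-type held 961 genes called with at least a 2-fold difference, S42A against wild-type 631 (3.16% of genes) and S42D against S42A 630 (3.16%). S42D differed by at least 2-fold from parental cells for 561 called genes (2.81%) and the wild-type line for 870 (4.36%).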

How the data were processed

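The authors deposited log2 intensities of 34760 probe sets on 15 arrays, a unit read from the values. The submitters' processing notes name R 2.10.0 and affy with no role, and the normalization is not given in the sources used here. Of the probe sets 21640 had 1 gene symbol, 1321 several and 11799 none, and 21553 were matched to current RefSeq symbols by gene number. The probe set with the highest mean stood for each of 19937 genes, 954 of which had more than 1. All 5 lines were fitted with limma 3.58.1 in R 4.3.3 (2-sided, Benjamini-Hochberg over all genes, 10 residual degrees of freedom), after a run on simulated data. The number of arrays limits precision.

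Of 243 genes named, 220 followed a rule: the 14 largest rises and falls called without overlap between the lines, up to 3 such members per list and direction, all called members where 5 or fewer were called, and a set of Twist1, TGF-beta, Akt and transition genes. The other 23 (Krt8, Krt18, Pecam1, Ptprc, Pdgfa, Pdgfb, Pdgfd, Mcm3, Pola1, Hmgcs1, Nlrc5, H2-Aa, Id2, Smad6, Tgfbr3, Bmpr1a, Eng, Acvr1b, Mki67, Aurkb, Ccnb2, Plk1 and Birc5) were chosen outside it, after values were seen. Smad5, added after values were seen, is not counted in the 243 and was not followed through the alternatives. The samples compared and the 32 gene lists were chosen with earlier results of these data known. Promoters are RefSeq windows of 15613 genes. Alternatives covered scaling, dim genes, arrays fitted, a replicate block, the variance model, array weights, probe sets and each array left out.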

Additional observations from a re-analysis of the deposited data

How the results depend on the processing

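Counts of called genes stayed within 1.5 times the reported ones under all 14 alternatives: 7967 to 9840 genes called against 8630, with the highest under array weights. With 1 array left out the counts were 7967 to 8284 called, 3778 to 3930 higher, 4148 to 4381 lower, 2655 to 2710 called with at least 1.5-fold and 956 to 967 with at least 2-fold. Median centring moved the split of calls most, to 3383 higher and 4800 lower. Fitting the replicate number as a block gave 8468 called genes, 4042 higher and 4426 lower. Deviations of same-numbered wild-type and S42D arrays correlated at 0.20, -0.049 and 0.21. Those of arrays with unlike numbers correlated at -0.26 to 0.078, below the values for replicates 1 and 3. Whether the numbers mark a shared batch was not tested, and the reported fit did not pair the samples.

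Sign changes were limited to differences that were not called in the reported fit. For S42D minus wild-type, the sign changed for Cdh2 (-0.012 with median centring), Epcam (0.00038 with array weights, -0.065 to 0.042 with 1 array left out) and H2-Aa (-0.011 with median centring, -0.047 to 0.083 with 1 array left out). It changed for Mki67 (0.032 with array weights, -0.077 to 0.056 with 1 array left out), Pdgfd (-0.087 to 0.0027 with 1 array left out) and Pecam1 (-0.025 to 0.011 with 1 array left out). The sign also changed for Ptprc (-0.034 to 0.0052 with 1 array left out), Snai1 (0.031 with quantile normalization, -0.031 to 0.011 with 1 array left out) and Snai2 (-0.036 with median centring, -0.020 with array weights, -0.042 to 0.039 with 1 array left out). For S42D minus S42A, the sign changed for Acvr1 (0.0035 with quantile normalization, -0.023 to 0.021 with 1 array left out), Adm (0.096 with array weights, -0.19 to 0.092 with 1 array left out) and Btg2 (-0.045 to 0.012 with 1 array left out). It changed for Ccnd1 (-0.0059 with median centring, -0.016 with quantile normalization, -0.0010 to 0.014 with 1 array left out), Ccng2 (-0.037 with array weights, -0.020 to 0.055 with 1 array left out) and Cd79a (0.072 with array weights, -0.084 to 0.041 with 1 array left out). The sign also changed for Cdk6 (0.0091 with array weights, -0.032 to 0.00091 with 1 array left out), Cldn3 (-0.017 to 0.028 with 1 array left out) and Cldn4 (-0.30 to 0.031 with 1 array left out). It changed for Id2 (-0.0069 to 0.043 with 1 array left out), Il13ra2 (-0.0047 with median centring, -0.025 to 0.055 with 1 array left out) and Rplp0 (-0.0020 with median centring, -0.0063 with quantile normalization, -0.011 to 0.032 with 1 array left out). Over all named genes, lists and alternatives, 108 values lost and 46 gained the call and 29 list counts moved by over 1.5 times. Each of these counts was 5 or fewer in the reported fit. Of mitosis and spindle, 2 called higher became 1 with median centring. Of cyclins D and cell cycle inhibitors, 5 called higher became 3 with median centring. Of macrophage and leukocyte markers, 1 called lower became 2 with median centring, with quantile normalization, with array weights and without S42D replicate 3. Of endothelial markers, 1 called lower became 0 with intensity trend and robust estimation, without wild-type replicate 1, without wild-type replicate 3, without S42D replicate 1 and without S42D replicate 2, and 2 with median centring, with quantile normalization and with array weights. Of adipocyte and muscle markers, 1 called lower became 0 without wild-type replicate 2, without S42D replicate 1 and without S42D replicate 3, 2 with median centring, with quantile normalization and with only the 6 arrays fitted, and 3 with array weights. Of housekeeping genes, 4 called higher became 2 with median centring. Of adipocyte and muscle markers, 2 called higher became 1 with quantile normalization, without wild-type replicate 1 and without S42D replicate 2. Of matrix proteases and inhibitors, 4 called lower became 2 with the dimmest 25% of genes left out, without wild-type replicate 1 and without S42D replicate 1. Of macrophage and leukocyte markers, 3 called higher became 0 with the dimmest 25% of genes left out. The cause of these changes was not tested.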

Other observations

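Probe sets with several gene symbols or none were not part of the comparison of genes. Of these 13120 probe sets, 2552 (19.5%) were called between the S42D and wild-type lines by the same limma fit, with adjusted p-values over all probe sets.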
